A study of Mus musculus with 2 samples.

Results

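Microexons are the shortest exons that the spliceosome joins into messenger RNA. In adult mouse cortex, 719 exons of 3 to 27 nt in 606 genes could be measured, of 111094 internal exons measured in the same way. They were chosen from the exon table on the mm9 assembly, which lists 7654 exons of 3 to 27 nt that belong to a single gene. Of these, 1031 had splice junctions with the annotation flag set at both ends, and 719 of those had at least 20 informative reads in each of 2 columns of junction reads. The other 312 had fewer. Inclusion takes the mean of the junction reads at both exon ends and divides it by the informative reads, which are this mean and the reads that join the outer splice sites and skip the exon. It is given in percent, and a mean can end in 0.5 reads.

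The study measured polyadenylated RNA above 200 nt by stranded paired-end sequencing. Its 2 libraries form 1 group, the adult cortex of C57BL/6J mice of 8 weeks, labelled cortical plate and biological replicates 2 and 1. Each is RNA of pooled male and female littermates, with no treatment or allele given. The labels list separate tissue samples under the same donor entry, so the spread between the libraries is that between pools and may be partly technical. The junction columns R2 and R1 held 38323842 and 39026825 reads, and which column holds which replicate is not stated. On mm10 the genes summed to 88643335 expected counts for replicate 2, and 88327121 for replicate 1. Neuronal markers were high: Snap25 had 1465 TPM in replicate 2 and 1594 TPM in replicate 1. All 15 markers checked were above 10 TPM in both replicates except Ckm of skeletal muscle, at 0 TPM in replicate 2 and 0.260 TPM in replicate 1, while Acta1 of the same tissue had 12.3 and 18.4 TPM. Mbp of oligodendrocytes had 2220 TPM in replicate 2 and 1815 TPM in replicate 1.

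An exon this short leaves little room for the proteins that define longer exons, and its use depends on enhancer sequences in the flanking introns. In neurons the splicing regulator Srrm4 is known to promote microexon inclusion, together with its relative Srrm3, and the polypyrimidine tract binding protein Ptbp1 represses many of the same exons in other cells. Most neural microexons keep the reading frame and insert a few residues at the surface of a protein domain, where they change how proteins bind each other at synapses, on vesicles and along the cytoskeleton. In these libraries Srrm4 had 8.89 TPM in replicate 2 and 10.4 TPM in replicate 1. Srrm3 had 40 TPM in replicate 2 and 46.4 TPM in replicate 1, Ptbp1 26.8 and 29.2 TPM, and Ptbp2, its neuronal relative, 26.4 and 29.9 TPM.

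Up to 2 of the most deeply read partly included coding exons of each functional list, leaving out exons that share an end with another, show what such an insert is. They are read 5′ to 3′ along the spliced transcript, from GENCODE release 21 on GRCm38 (mm10). Capitals mark the microexon, and lower case the 15 bases on either side in the neighbouring exons.
Agrn 24 nt, chr4:156168546-156168569, minus strand: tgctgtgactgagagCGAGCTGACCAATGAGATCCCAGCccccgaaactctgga
Kif1a 24 nt, chr1:93026832-93026855, minus strand: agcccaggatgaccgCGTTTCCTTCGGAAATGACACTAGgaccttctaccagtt
Kif1a 27 nt, chr1:93034546-93034572, minus strand: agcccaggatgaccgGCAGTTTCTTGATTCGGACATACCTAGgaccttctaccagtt
Macf1 18 nt, chr4:123364057-123364074, minus strand: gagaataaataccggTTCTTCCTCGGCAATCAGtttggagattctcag
Clasp2 24 nt, chr9:113878750-113878773, plus strand: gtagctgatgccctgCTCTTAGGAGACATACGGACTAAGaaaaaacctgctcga
Cacna2d3 18 nt, chr14:29124666-29124683, minus strand: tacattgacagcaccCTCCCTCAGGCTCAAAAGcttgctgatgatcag
Eif4g3 21 nt, chr4:138095909-138095929, plus strand: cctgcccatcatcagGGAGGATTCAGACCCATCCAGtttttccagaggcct
Eif4g1 21 nt, chr16:20674786-20674806, plus strand: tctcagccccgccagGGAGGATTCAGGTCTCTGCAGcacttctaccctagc
Mink1 24 nt, chr11:70609408-70609431, plus strand: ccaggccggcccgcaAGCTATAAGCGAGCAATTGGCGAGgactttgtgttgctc
Src 18 nt, chr2:157458843-157458860, plus strand: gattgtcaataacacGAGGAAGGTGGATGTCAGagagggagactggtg

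Most measured microexons were included in over 90% of informative reads, and 24.8% of them were partly included. Exons without a flagged junction listed at both ends could not enter, so these shares leave out exons whose inclusion left no such junction. The median inclusion over the 719 was 99.4% in R2 and 99.2% in R1. Inclusion lay above 90% in both columns for 466 microexons (64.8%), between 10 and 90% in both for 178 and under 10% in both for 43 (5.98%). The other 32 had the columns on different sides of a limit. Partial inclusion was much less frequent among longer exons: 2.43% of the 110375 exons above 27 nt had 10 to 90% inclusion in both columns. The share was 7.53% over 4542 exons of 28 to 51 nt and 2.21% over 105833 exons of 52 nt or more. Longer exons of the same genes as the microexons had 2.73% (270 of 9877 exons of 52 nt or more). The 95% Wilson intervals, which cover counting error over exons only, were 21.7 to 28.04% for microexons, 6.80 to 8.33% for exons of 28 to 51 nt and 2.43 to 3.07% for the longer exons of the same genes. The depth was alike, with median informative reads per exon of 121 in R2 and 123 in R1 for microexons, against 129.5 in R2 and 131 in R1 for exons of 52 nt or more. In bulk tissue, a partly included exon in every cell and a mixture of cells that include and skip it cannot be told apart, nor can fewer cells of a type and less RNA per cell.

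**Figure D1:**
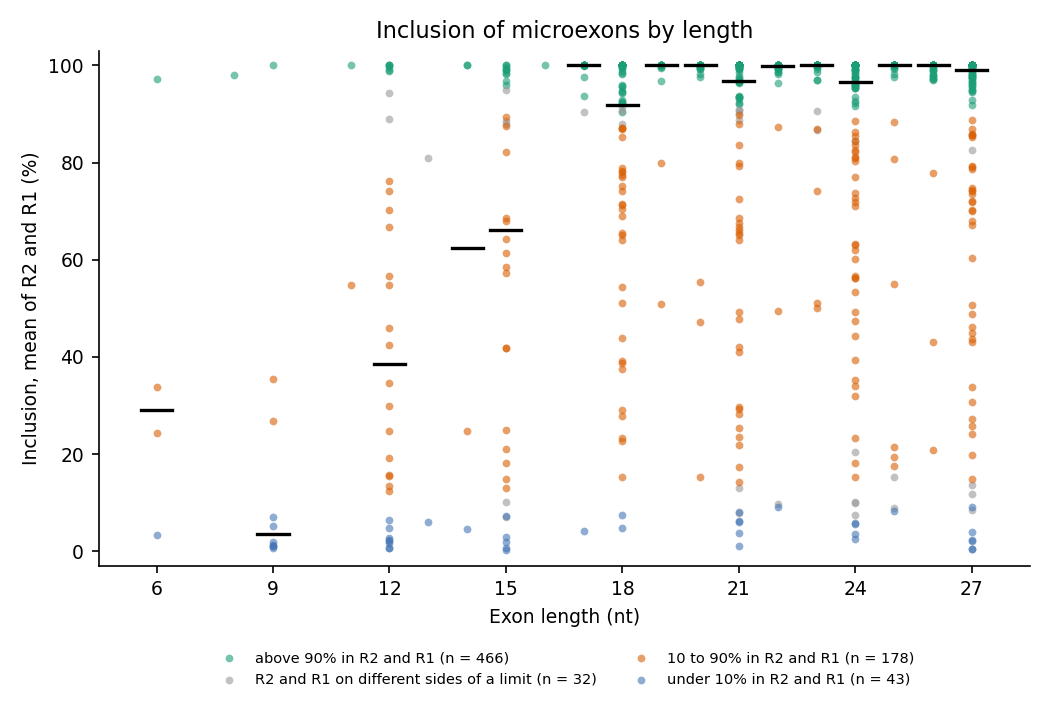
Inclusion (mean of columns R2 and R1, %) of each of the 719 microexons against its length in nt, coloured by class. Black lines are medians of lengths with at least 4 exons: 38.5% at 12 nt, 66.1% at 15 nt and 99.1% at 27 nt.

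By junction reads, the shortest microexons were the least included, an order that the transcript shares given below did not have. No exon of 3 to 5 nt passed the read limit, although 4 had annotated junctions at both ends, and the shortest measured were 4 exons of 6 nt. Median inclusion was 7.07% over 15 exons of 3 to 9 nt, 44.2% over 34 of 10 to 12 nt and 66.1% over 42 of 13 to 15 nt. It was 94.5% over 86 of 16 to 18 nt and above 99% in each longer class of 3 lengths. The share with 10 to 90% inclusion was 4 of 15 exons at 3 to 9 nt and 17 of 34 at 10 to 12 nt. It was 33.7% at 16 to 18 nt, 22.2% at 22 to 24 nt and 17.9% at 25 to 27 nt. Near the limit of 27 nt the share varied with divisibility by 3 as well as with length. At lengths divisible by 3, partly included exons were 33 of 110 at 24 nt, 33 of 138 at 27 nt and 18 of 143 at 30 nt. At the lengths between, they were 6 of 56 at 25 nt, 3 of 40 at 26 nt, 4 of 59 at 28 nt and 5 of 54 at 29 nt.

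Read placement changed with length in the same range, and its part in the trend was not tested. Both ends of an exon should gain equal numbers of junction reads when transcripts run through it. The log2 ratio of downstream to upstream reads had a median of 2.54 over exons of 3 to 9 nt, where 11 of 15 had more reads downstream, and of 0.02 over exons of 22 to 24 nt. The ends lay within 1.5-fold of each other in 6.67% of exons of 3 to 9 nt, 38.2% of those of 10 to 12 nt and in 21 of 42 exons of 13 to 15 nt. From 16 to 27 nt the share was 78.0%, against 72.1% of exons of 28 to 51 nt and 61.3% of longer ones. Of 77 microexons whose ends differed by more than 4-fold, 47 shared a start or an end with another exon of the table. Over all 719 microexons, 165 did. A shared end can gain reads from the other exon, and its part in the imbalance was not tested. Among the exons of 3 to 9 nt, only that of Shank2 shared an end.

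**Figure D2:**
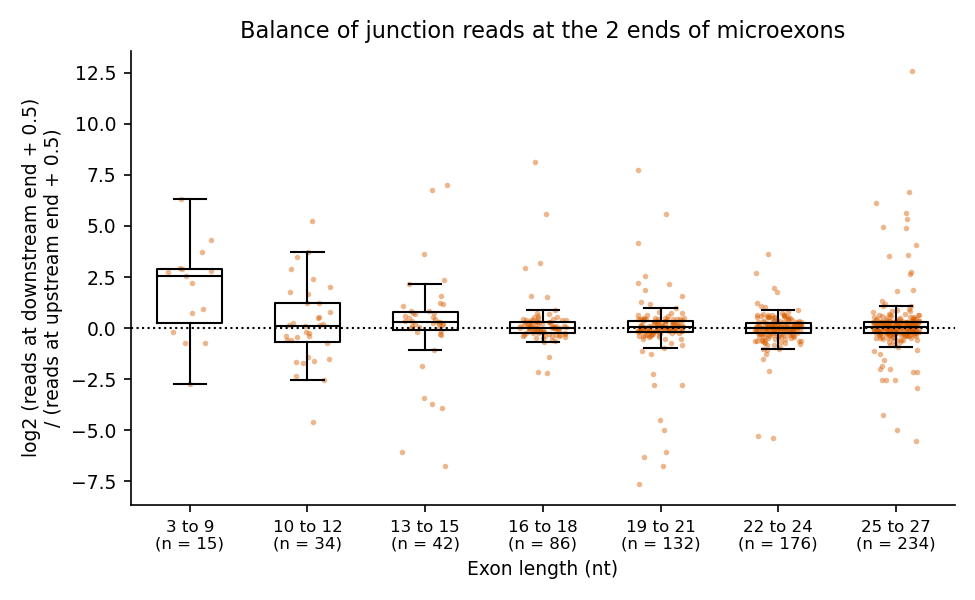
Log2 ratio of junction reads at the downstream end to those at the upstream end (0.5 added, columns summed) for the 719 microexons in 7 length classes. Points are exons, boxes are quartiles and whiskers reach to 1.5 times the box. The median is 2.54 at 3 to 9 nt and the points close in on 0 from 16 nt.

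The 3 coding exons of 6 nt that could be placed on GRCm38 show how short the insert can be.
Clip1 6 nt, chr5:123581592-123581597, minus strand: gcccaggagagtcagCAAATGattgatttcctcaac
Git2 6 nt, chr5:114753148-114753153, minus strand: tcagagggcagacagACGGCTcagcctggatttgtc
Nsmf 6 nt, chr2:25057965-25057970, plus strand: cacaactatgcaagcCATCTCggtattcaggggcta

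Nsmf encodes a messenger that travels from synapses to the nucleus, and its exon had 44 reads downstream, 5 upstream and 71 skipping reads in R2, against 69, 10 and 55 in R1. Inclusion was 25.7% in R2 and 41.8% in R1. Clip1, a protein at growing microtubule ends, had 30.7% in R2 and 18.2% in R1, and Git2, a GTPase-activating scaffold, 2.13% in R2 and 4.76% in R1 on 23.5 and 21 informative reads. Transcript estimates on mm10, limited to the transcripts described below, gave a different picture of these exons. Transcripts that hold the Nsmf exon had 97.3% in replicate 2 and 97.97% in replicate 1 of the TPM of those that hold or skip it. The same share was 41.6% and 43.5% for Clip1 and 43.9% and 47.3% for Git2, above the junction value of each. The fourth exon of 6 nt, in a gene listed only as ENSMUSG00000001379, had 97.6% in R2 and 96.8% in R1 and nearly all of its reads at the downstream end, 80 against 0 in R2 and 118 against 2 in R1. All 4 values depend on which junctions count as skipping: with every junction that spans the exon within its gene, the mean over both columns was 27.5% for this exon, against 97.2%, 1.15% for Nsmf, against 33.7%, 2.77% for Clip1, against 24.4%, and 0.820% for Git2, against 3.44%.

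Of the 11 other exons of 8 or 9 nt, 7 were under 10% in both columns. Psap, the precursor of the saposins that help lysosomal lipid breakdown, had the deepest readout, with 10 upstream, 10 downstream and 1992 skipping reads in R2, against 6, 21 and 1912 in R1. Its inclusion was 0.4995% in R2 and 0.701% in R1. The 9 nt exons of Ap1b1 (an adaptor subunit of clathrin coats), Cadps (which primes dense-core vesicles), Kcnma1 (the large-conductance calcium-activated potassium channel), Nav2 (a neuron navigator), Emc1 and the kinesin Kif3a lay between 0.535% and 7.63%. Madd, a Rab3 exchange factor of synaptic vesicles, had 27.5% in R2 and 26.2% in R1, and the kinase Map4k4 had 41.7% and 29.4%. The 9 nt exon of Shank2 was at 100% in both columns, on 30 informative reads in R2 and 20 in R1. It shares an end with another exon and had 54 downstream and 6 upstream reads in R2, against 35 and 5 in R1. With junctions of any flag at the ends its mean was 41.4%. With every spanning junction counted as skipping, the means over both columns were 12.2% for Shank2, 3.05% for Madd and 3.29% for Map4k4. They were 0.128% for Psap, against 0.600%, 1.04% for Ap1b1 (9 nt), against 1.97%, and 1.5% for Emc1, against 5.30%. By the downstream end alone, Emc1 had 9.03% and Kif3a 11.3%. The Kif3a exon had 7.63% in R2 and 6.52% in R1 by junction reads, but a transcript share of 96.1% in replicate 2 and 95.3% in replicate 1.

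Partly included microexons mostly had a length that keeps the reading frame. A length divisible by 3 was found in 156 of 178 microexons with 10 to 90% inclusion (87.6%, Wilson interval 82.0 to 91.7%) and in 38 of 43 under 10% (88.4%, 75.5 to 94.9%). Among those above 90% the count was 273 of 466 (58.6%, 54.1 to 63.0%). Within coding sequence, 127 of 136 partly included microexons had such a length (93.4%), against 77.3% of 238 coding exons of 28 to 51 nt and 59.4% of 1450 coding exons of 52 nt or more in the same class. Among coding exons above 90% the share was 57.8% of microexons, 43.2% of exons of 28 to 51 nt and 39.0% of longer ones. Seen from the other side, 31.7% of the 492 microexons divisible by 3 were partly included, against 9.69% of the other 227. Of the 22 partly included exons out of frame, 12 shared an end with another exon of the table, whereas 36 of all 178 did. The most deeply read without a shared end were Mfsd6 (25 nt, 78.9% in R2 and 82.5% in R1), Arhgap23 (23 nt, 88.0% and 86.0%) and Bak1 (20 nt, 51.6% and 59.3%), named after their values were seen.

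**Figure D3:**
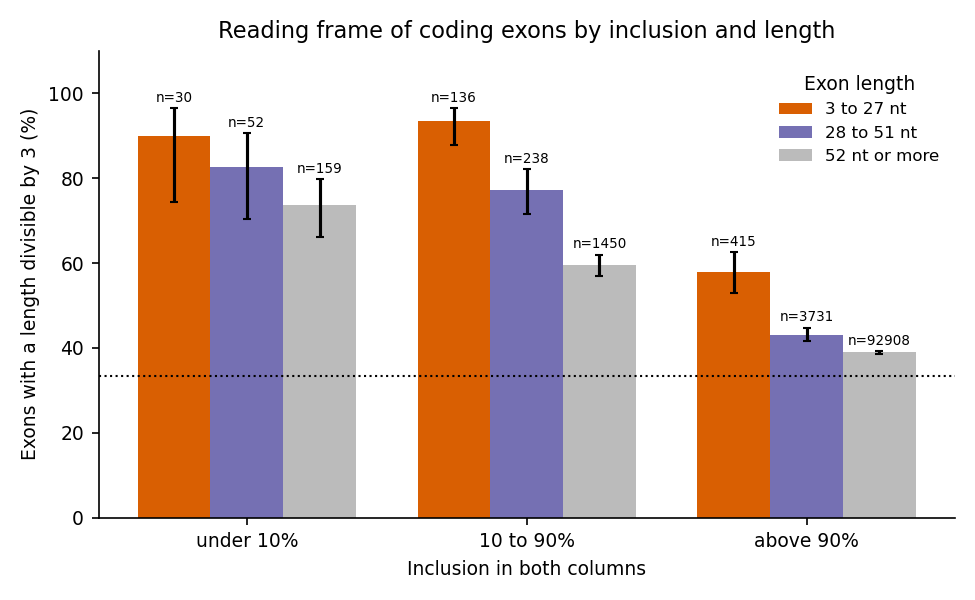
Percent of coding exons with a length divisible by 3, by inclusion class (in both columns) and exon length, with 95% Wilson intervals and the number of exons above each bar. The dotted line is 1 exon in 3. Microexons stand at 27 of 30 exons under 10% inclusion, 93.4% at 10 to 90% and 57.8% above 90%, above both longer classes in each group of bars.

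Introns beside partly included microexons had a median length of 2114.5 nt upstream and 1491 nt downstream, against 1297.5 and 1034 nt beside microexons above 90%, by the flagged junction with most reads. Exons of 52 nt or more had the same order, with 1950.5 and 1993 nt against 1298 and 1196 nt. The median G+C content was 50% in the partly included microexons and 47.8% in those above 90%. Of the 719, 653 were placed on GRCm38, where 610 lay in coding sequence, 13 in coding sequence in part, 15 in untranslated regions and 15 in non-coding transcripts.

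The 2 columns gave nearly the same inclusion for most microexons. The absolute difference had a median of 4.06 percentage points over the 178 partly included ones, and 153 of them lay within 10 points. Pearson's r of R2 on R1 was 0.957 over these 178 exons and Spearman's rho was 0.954, a description over exons that share libraries. No microexon passed the two-sided Fisher exact test of R2 against R1 at an adjusted p of 0.05 (Benjamini-Hochberg over all 111094 exons), and over all exons 0.00180% did. At an unadjusted p under 0.05 there were 32 microexons (4.45%), 11 higher and 21 lower in R2, beside 0.762% of all exons. Over partly included exons, where a difference can show, the count was 17 of 178 (9.55%), beside 8.40% of longer exons of the same class. Counting the reads at both ends in full, against skipping reads counted 2 times, put 10 microexons past the adjusted threshold. That setting doubles the counts without adding libraries or skipping reads, which can lower p values by itself. The smallest p values, picked for their size, belonged to Pdlim7 (17 nt), with 86.7% in R2 and 94.2% in R1, Herc4 (24 nt), with 76.6% and 92.2%, and Arntl (21 nt), a core clock gene, with 5.18% and 20.8%. These p values compare 2 libraries of 1 group and no conditions.

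**Figure D4:**
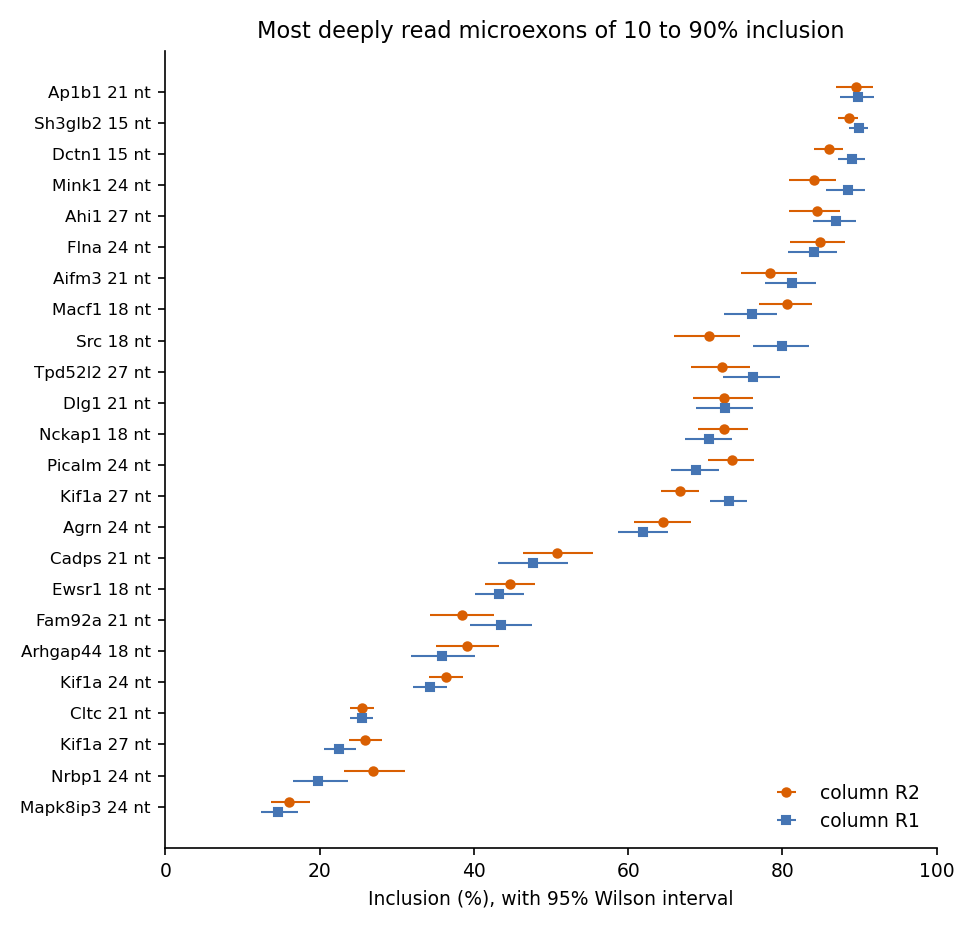
Inclusion (%) in column R2 (circles) and column R1 (squares) of 24 of the 25 partly included microexons with most informative reads, with 95% Wilson intervals. The intervals of the columns overlap except for Src and the 27 nt exon of Kif1a near 70%.

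The 25 partly included microexons with most informative reads had 384 to 3264 of them per column and spanned 14.6 to 89.9% inclusion. The deepest was a 21 nt exon of Cltc, the clathrin heavy chain, at mm9 chr11:86514563-86514583, which shares an end with another exon. It had 737 upstream, 763 downstream and 2193 skipping reads in R2, against 807, 854 and 2433 in R1, for an inclusion of 25.5% in R2 and 25.4% in R1. The Wilson intervals, 23.9 to 27.1% in R2 and 23.99 to 26.98% in R1, overlap almost fully. Kif1a, the kinesin that carries synaptic vesicle precursors along axons, held 3 of the 25.

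A pair of Kif1a microexons, 27 and 24 nt, lies in 1 intron and shares its outer splice sites, so each shares the same skipping reads and the sequences above have the same flanks. Reads that join the pair to each other were nearly absent, 1 in R2 and 7 in R1. From the common upstream site, 305 reads went to the 27 nt exon, 541 directly to the 24 nt exon and 1142 past both in R2, against 264, 482 and 1201 in R1. The shares were thus 15.3%, 27.2% and 57.4% in R2 and 13.6%, 24.8% and 61.7% in R1, while inclusion as defined above was 25.9% and 22.5% for the 27 nt exon and 36.3% and 34.3% for the 24 nt exon. The remaining Kif1a exon of this class, 27 nt long at mm9 chr1:94962129-94962155, had 66.8% in R2 and 73.1% in R1 (unadjusted p = 4.09e-04, adjusted p = 1, Fisher exact test). In Porcn, which acylates Wnt proteins, neighbouring exons of 18 and 15 nt were instead joined to each other by 179 of the 183 reads downstream of the first in R2, and by 208 of 213 in R1. In Cadps the 9 nt exon and the 21 nt exon also share outer sites: 219 reads in R2 and 175 in R1 went directly to the 21 nt exon, and 5 and 2 to the 9 nt exon.

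Among genes of vesicle release, endocytosis and transport, 28 had 44 measured microexons. Of these, 15 were partly included, 22 were above 90% and 6 under 10%, with a median of 91.6% beside 99.0% over all microexons. Picalm, an adaptor that recruits clathrin to membranes, had 73.5% in R2 and 68.7% in R1 at 24 nt. The 21 nt exon of Ap1b1 had 89.5% in R2 and 89.8% in R1, and that of Cadps 50.8% and 47.7%. Rims1 and Rims2, scaffolds of the active zone, each had a 12 nt exon, with 100% in R2 and 99.2% in R1 for Rims1 but 61.0% and 52.5% for Rims2. Snap91 (15 nt), a clathrin adaptor, had 97.1% in R2 and 96.5% in R1, and the liprin Ppfia3 (27 nt) had 98.3% in both. At the low end, the 27 nt exon of Kif1b had 0.202% in R2 and 0.708% in R1 over 988 and 989 informative reads. Outside the lists, Sh3glb2 (15 nt), an endophilin of intracellular membranes, had 88.6% in R2 and 89.9% in R1 at an exon that shares an end with another, and its 12 nt exon 76.4% and 76.0%. Dctn1, the large dynactin subunit that links dynein to cargo, had 86.1% in R2 and 89.0% in R1 at 15 nt. Mapk8ip3, a scaffold of axonal transport, had 16.03% in R2 and 14.6% in R1 at 24 nt.

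Cell adhesion and axon guidance had the largest share of partly included microexons among the 6 lists, 20 of 37 in 19 genes, with 8 above 90% and 4 under 10%. The median was 70.1%, and all 37 had a length divisible by 3. Agrn, agrin, clusters acetylcholine receptors at the neuromuscular synapse through forms with an insert at its z site. The 24 nt exon printed above had 381 upstream, 452 downstream and 229 skipping reads in R2, against 526, 533 and 325 in R1, and an inclusion of 64.5% in R2 and 62.0% in R1. Its 12 nt exon had 54.0% and 55.5%. Ptprd, a receptor phosphatase whose short inserts are known to set which postsynaptic partner it binds, had 5 measured microexons. A 12 nt exon had 2.05% in R2 and 2.78% in R1, and a 15 nt exon with the same downstream end 1.93% and 2.10%. The same downstream reads, 10 in R2 and 9 in R1, count for both. The others had 76.0% in R2 and 73.4% in R1 at 27 nt, 44.6% and 47.2% at another of 12 nt, and 76.9% and 81% at 18 nt. Nfasc, neurofascin of the node and the axon initial segment, had 53.3% in R2 and 55.5% in R1 at 18 nt.

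Neurexins, presynaptic adhesion proteins, carried 27 nt microexons, of which those of Nrxn2 and Nrxn3 are compared here after their values were seen. The sequences show how far these exons match, and the inclusion of each is given below them.
Nrxn2 27 nt, chr19:6488784-6488810, plus strand: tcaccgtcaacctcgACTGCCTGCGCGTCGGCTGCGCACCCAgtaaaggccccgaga
Nrxn3 27 nt, chr12:89354453-89354479, plus strand: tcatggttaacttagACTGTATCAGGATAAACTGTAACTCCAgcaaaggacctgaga
Nrxn3 second 27 nt, chr12:89517906-89517932, plus strand: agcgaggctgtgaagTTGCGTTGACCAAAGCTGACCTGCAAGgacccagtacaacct

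Nrxn2 shares 13 of 27 bases with the first exon of Nrxn3 and 6 of 27 with the second. Inclusion was 69.8% in R2 and 70.5% in R1 for Nrxn2, and 92.6% and 96.8% for the first exon of Nrxn3, which shares an end with another exon. The second exon of Nrxn3 shares 4 of 27 bases with the first and had 29.9% in R2 and 31.7% in R1. With so few bases shared, it may not be a counterpart of the others. The 18 nt exons of both genes were above 90% in both columns, at 99.3% in R2 and 99.4% in R1 for Nrxn2 and 100% and 97.8% for Nrxn3. Latrophilins, adhesion receptors that bind teneurins, each had an 18 nt exon, with 100% in R2 and 99.8% in R1 for Adgrl1, 5.401% and 4.09% for Adgrl2 and 26.4% and 18.9% for Adgrl3. These may be different exons, since Adgrl1 and Adgrl3 share 10 of 18 bases and Adgrl2 could not be placed on GRCm38. Teneurins at 21 nt had 96.4% in R2 and 84.0% in R1 for Tenm2, 66.0% and 67.4% for Tenm3 and 90.2% and 94.3% for Tenm4, on 27 to 63 informative reads per column.

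In the cytoskeleton and scaffold list, 23 genes had 35 microexons, 17 of them partly included, 14 above 90% and 2 under 10%, with a median of 85.9%. Clasp2, which stabilises microtubule ends, had 61.4% in R2 and 64.7% in R1 at the printed 24 nt exon, and 82.8% and 82.2% at another of 24 nt. The 18 nt exon of Macf1, a linker of actin and microtubules, had 80.6% in R2 and 76.0% in R1. Dlg1, a synaptic scaffold, had 72.4% and 72.6% at 21 nt, but its ends held 596 reads downstream and 133 upstream in R2 and 659 and 146 in R1, and the exon shares an end with another. Shank scaffolds of the postsynaptic density had 24 nt exons with 11 of 24 bases the same, at 11.2% in R2 and 8.62% in R1 for Shank1, and 96.3% and 95.01% for Shank3. Sptan1, the brain spectrin, was at 100% in both columns for its 18 nt exon, with no skipping read beside 2738 and 3426 informative reads. Outside the list, Nckap1 of the WAVE complex had 72.4% in R2 and 70.5% in R1 at 18 nt, and Flna, filamin A, had 84.9% and 84.1% at 24 nt.

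Channels, receptors and pumps had 18 microexons in 13 genes, 5 partly included, 11 above 90% and 1 under 10%, and a median of 98.6%. The printed 18 nt exon of Cacna2d3, an auxiliary subunit of calcium channels, had 74.8% and 67.7%. The 20 nt exons of the calcium channel beta subunits Cacnb1, Cacnb4 and, outside the list, Cacnb3 are out of frame by length, and each was between 97.5% and 99.8% in both columns.

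In the list of transcription, chromatin and RNA genes, 7 of 14 microexons were partly included and 6 above 90%, with a median of 85.9%. Kdm1a, a histone demethylase whose 12 nt exon makes its neuronal form, had 10.6% in R2 and 20.5% in R1 on 94 and 78 informative reads. Mef2d, a neuronal transcription factor, had 86.7% in R2 and 94.97% in R1 at 21 nt (unadjusted p = 3.52e-04, adjusted p = 1, Fisher exact test). Its relatives at 24 nt had 84.8% and 75.9% for Mef2a, and 97.8% and 97.6% for Mef2c. The translation initiation scaffolds Eif4g1 and Eif4g3 carry matching 21 nt exons, printed above, with 16 of 21 bases the same, and had 79.0% in R2 and 79.7% in R1 for Eif4g1 and 69.0% and 66.0% for Eif4g3. Ewsr1, an RNA-binding protein outside the list, had 44.7% and 43.3% at 18 nt, at an exon that shares an end with another.

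Matching exons of 24 nt occur in 3 CPEB genes, which encode RNA-binding proteins that control translation through the poly(A) tail, and of 21 nt in both CAMTA genes, calmodulin-binding transcription activators. They are shown because the sequences are close and, among the CPEB genes, the inclusion differs.
Cpeb2 24 nt, chr5:43268869-43268892, plus strand: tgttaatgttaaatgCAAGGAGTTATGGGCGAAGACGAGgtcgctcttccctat
Cpeb3 24 nt, chr19:37105791-37105814, minus strand: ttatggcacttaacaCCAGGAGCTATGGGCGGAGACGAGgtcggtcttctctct
Cpeb4 24 nt, chr11:31918801-31918824, plus strand: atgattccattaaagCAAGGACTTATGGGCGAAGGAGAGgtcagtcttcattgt
Camta1 21 nt, chr4:151076577-151076597, minus strand: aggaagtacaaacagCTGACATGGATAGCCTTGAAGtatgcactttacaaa
Camta2 21 nt, chr11:70670891-70670911, minus strand: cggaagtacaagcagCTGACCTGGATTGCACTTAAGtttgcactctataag

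The Cpeb2 exon shares 21 of 24 bases with Cpeb3 and 21 with Cpeb4, which share 18 with each other. Cpeb4 had 55% in R2 and 57.6% in R1, Cpeb3 78.9% and 83.2%, and Cpeb2 100% in both, an exon that shares an end with another. Camta1 and Camta2 share 16 of 21 bases and had 98.8% in R2 and 96.7% in R1 for Camta1 and 94.2% and 92.7% for Camta2.

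Kinases, phosphatases and small GTPase signalling had 18 microexons in 16 genes, 9 partly included, 8 above 90% and 1 under 10%, with a median of 85.0%. The 18 nt exon of Src makes its neuronal form by an insert in the SH3 domain. It had 315 upstream, 295 downstream and 128 skipping reads in R2, against 401, 342 and 93 in R1. Inclusion was 70.4% in R2 and 79.98% in R1, with intervals of 66.0 to 74.5% and 76.1 to 83.4% that do not overlap (unadjusted p = 0.00110, adjusted p = 1, Fisher exact test). Mink1, a kinase of the Ste20 family, had 84.1% and 88.4% at 24 nt. Mark3 (27 nt), a kinase of microtubule-associated proteins, had 28.5% in R2 and 26.1% in R1. Over the 6 lists together, 73 of 166 microexons were partly included (44.0%). Of microexons in genes outside these lists and a separate list of splicing regulators, 104 of 552 were (18.8%). The lists were drawn up with earlier results of these data known, so this share is a description.

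The remaining partly included microexons among the 25 were in genes of varied function. Arhgap44 (18 nt), a GTPase-activating protein, had 39.1% in R2 and 35.8% in R1, and Ahi1 (27 nt), a protein of primary cilia, 84.4% and 87.0%. With skipping reads from flagged junctions only, Ahi1 had a mean of 100%, against 85.7%, and was no longer partly included. Fam92a (21 nt) had 38.4% in R2 and 43.5% in R1, or a mean of 23.1% from its upstream end alone, Tpd52l2 (27 nt) 72.1% and 76.2%, Aifm3 (21 nt) 78.4% and 81.3%, and Nrbp1 (24 nt) 26.9% and 19.8%. Of the 25, 13 were higher and 12 lower in R2.

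Transcript estimates on mm10 gave a second readout of 219 microexons, from the same libraries and another mapping. The share is the TPM of transcripts that hold the exon over the TPM of those that hold it or join its outer sites, where they reach 1 TPM in both replicates. Only transcripts of equal length in GENCODE releases M4 and 21 were counted, so a share can leave out other transcripts of the gene. Across these exons Pearson's r between share and inclusion was 0.684 and Spearman's rho 0.714, and 142 of 219 lay within 20 percentage points. Among the 25 deepest partly included exons, 21 had a share and 9 of these lay within 20 points. The share of Aifm3 was 27.1% in replicate 2 and 31.0% in replicate 1, against 78.4% in R2 and 81.3% in R1 by junctions. It rests on 1 transcript that holds the exon, with 9.22 TPM in replicate 2 and 12.75 TPM in replicate 1. The 1 transcript that skips it had 24.79 and 28.33 TPM, while the whole gene had 115.3 and 156.23 TPM. The share was 46.4% in replicate 2 and 48.2% in replicate 1 for the 21 nt exon of Ap1b1, and 48.6% and 50.8% for Cltc. The departures differed between length classes, without a steady course. All 5 exons of 3 to 9 nt had a higher transcript share, by a median of 42.2 points, and so did 14 of 19 exons of 10 to 12 nt, by a median of 24.7 points. The median difference was -2.41 points at 13 to 15 nt, -13.1 at 19 to 21 nt and -0.03 at 22 to 24 nt. From 16 to 27 nt together it was -3.85 points, with 13 of 172 more than 20 points higher and 41 more than 20 points lower. Median junction inclusion also differed, from 24.4% at 3 to 9 nt to 80.3% at 22 to 24 nt, and its part was not tested. The median share was 45.6% at 3 to 9 nt, 74.9% at 16 to 18 nt, 36.6% at 19 to 21 nt and 47.8% at 25 to 27 nt. Vps29 (12 nt), a retromer subunit, had 0.528% in R2 and 0.631% in R1 by junctions but a share of 46.7% in replicate 2 and 45.3% in replicate 1. Dlg1 went the other way, with shares of 10.7% and 11.1%. The 24 nt exon of Kif1a had shares of 82.7% in replicate 2 and 84.3% in replicate 1, against 36.3% and 34.3% by junctions. The Kif1a exon of 27 nt near 70% had shares of 16.7% and 15.3%, against 66.8% and 73.1%.

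**Figure D5:**
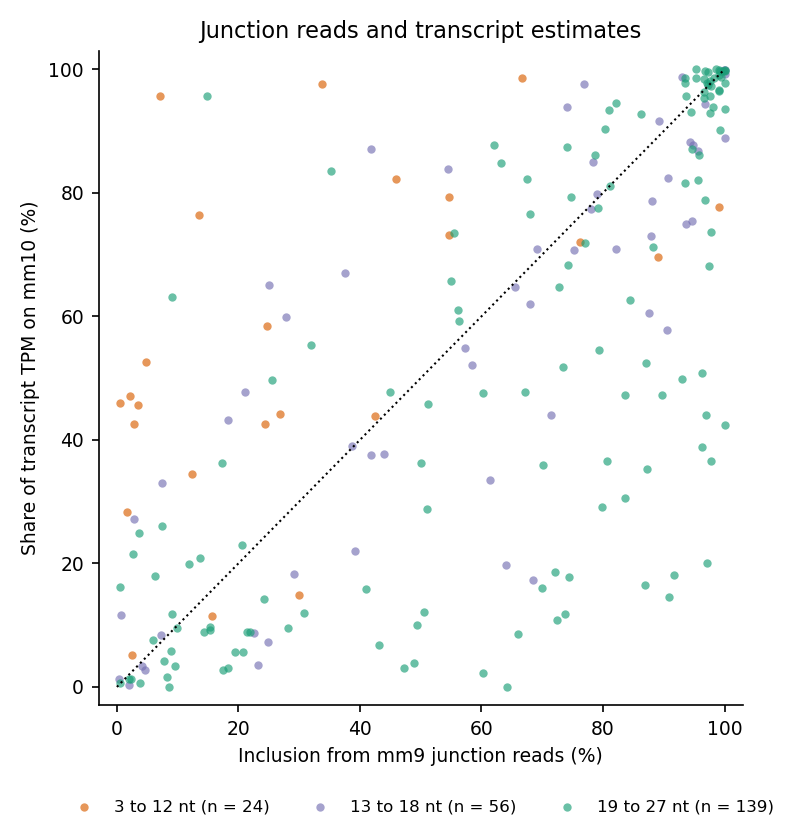
Share of transcript TPM on mm10 (%, mean of replicates) against inclusion from mm9 junction reads (%, mean of columns) for 219 microexons, coloured by length. The dotted line marks equal values. Points of 3 to 12 nt lie mostly above it, with all 5 of 3 to 9 nt above.

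The exon table also gives RPKM values, which were not specific to the exon in every gene. Relative to the median of the gene's internal exons of 52 nt or more, the median was 0.153 for microexons under 10% inclusion, 0.288 for those of 10 to 90% and 1.00 for those above 90%. The values of 211 of 700 microexons were within 1% of the gene's median in both columns. The 9 nt and 21 nt exons of Ap1b1 had equal ratios in both columns, 0.750 and 0.697, at a mean inclusion of 1.97% and 89.7%. The RPKM thus did not measure each of these exons on its own.

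Microexons under 10% with most reads were Psap, the 27 nt exons of Kif5c and Kif1b, Vps29, the 18 nt exon of Adgrl2 and the 15 nt exon of Adgrl1. Kif5c, a neuronal kinesin heavy chain, had 0.487% in R2 and 0.646% in R1 over 2088.5 informative reads in R1. Adgrl1 had 7.32% and 7.23%, and both Ptprd exons with a common downstream end are among the 12. The rest of the 12 were the 9 nt exon of Ap1b1, Rimbp2 (21 nt, 1.01% in R2 and 1.38% in R1), Ckap5 (24 nt, 3.93% and 3.18%) and Pttg1ip (25 nt, 8.06% and 8.49%, but a mean of 13.5% by the downstream end and 2.38% by the upstream end). Those above 90% with most reads were Selenow, Bsg, Ptgds, Nrgn, Aplp1, Sptan1, Uqcrh and Atp6v0a1, of which Ptgds, Sptan1 and Uqcrh share an end with another exon. The 25 nt exon of Selenow, a selenoprotein, had no skipping read in either column beside 11597 informative reads in R2 and 11478.5 in R1. Nrgn, neurogranin of dendritic spines, had 1 skipping read in each column beside 5429 and 5698.5 informative reads, and its 18 nt exon lies in an untranslated region. Atp6v0a1, a proton pump subunit, was the least complete of the 8, with 93.6% in R2 and 95.1% in R1 at 18 nt. Just inside the read limit were Arr3 (24 nt, 27.5 informative reads in R2 and 20 in R1) and Egflam (24 nt, 20 and 22), and just outside were 2 exons of BC051142 (21 nt, 19.5 in R1).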

How the data were processed

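Per the labels, the libraries are stranded, poly(A)-selected RNA of pooled littermates. The authors deposited a junction table on mm9 with whole-number counts of reads in 2 columns and an annotation flag of unstated meaning, and an exon table with RPKM per exon for the annotation of Ensembl release 65. They also deposited expected counts and TPM per gene, and TPM per transcript, on mm10 with release M4, per the file headers and the text deposited beside the files. Aligner and quantifier are not given in the sources used here. The RPKM and the reads per column stand inside text fields of the deposited tables. All flagged junctions (95.1% of reads in R2 and 95.2% in R1) end at exons of the table on both sides.

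Inclusion, Wilson intervals and two-sided Fisher exact tests on rounded reads with Benjamini-Hochberg adjustment were computed with Python 3.11.15, scipy 1.17.1, numpy 2.4.6 and pandas 2.3.3. On simulated reads at the depth of the 111094 exons, the comparison of R2 with R1 called 43 of 100 exons changed by 20 percentage points, 83 of 100 changed by 40 points and 0 of 110894 unchanged ones. Exons were placed on GRCm38 by transcript identifier, equal lengths of the exon and its internal neighbours, and intron lengths within 1% (or 5 nt). Wilson intervals reflect counting error alone, because PCR copies of a molecule cannot be recognised in these reads. Named exons are all of 3 to 9 nt; by informative reads, the 25 deepest of 10 to 90%, 12 of under 10% and 8 of above 90%; those of the functional lists; and the nearest to the read limit. The microexons, lists and tests were chosen with earlier results of these data known. Motifs in flanking introns were not analysed here. Some items that this rule names are not reported here.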

Additional observations from a re-analysis of the deposited data

How the results depend on the processing

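No paired analysis was possible because the series has 1 group and the mm9 columns carry no replicate number. The number of microexons measured (719), the 178 with 10 to 90% inclusion and the 0 past the Fisher exact test were within 1.5 times under every other planned setting of read minimum, flag, skipping reads and exon end. The exceptions follow. At 3 to 15 nt, 91 were measured, 38 were partly included and the median was 42.4%. With limits of 20% and 80% the count was 110. With ends summed and skipping reads counted 2 times, which doubles the counts, 10 passed the test. The median, 99.0%, was 98.2% with junctions of any flag, 100% with flagged skipping reads only, 92.3% with every spanning junction, 98.6% with the weaker end and 98.8% with the downstream end. Without column R1 or R2 it was 99.4% or 99.2%, and the partly included count 197 or 191.

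After the data were seen, leaving out exons that share an end gave a median of 98.3%, 16 to 27 nt gave 99.7%, and no adjustment gave 32 past the test. Of 58 exons followed singly, 13 were more than 5 points lower with every spanning junction and 7 with the weaker end. Of exons of 3 to 9 nt with flagged junctions at both ends, 15 of 30 reached the read minimum. Over all such exons of 3 to 27 nt, 719 of 1031 did, and the cause was not tested.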

Other observations

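Some genes carry several constitutive microexons, named here after their values were seen. Collagens hold exons of 27 nt: 3 in Col16a1, 3 in Col23a1 and 2 in Col6a1, all between 98.9% and 100% in each column. Col6a1, a chain of collagen VI, has a further pair of 21 nt exons joined to each other by 279 reads in R2 and 299 in R1, and both were at 100%. Mog, a myelin surface glycoprotein of oligodendrocytes, had 3 exons of 21 nt between 99.6% and 100%. Its first pair was joined by 813 reads in R2 and 594 in R1, while Mbp, also of oligodendrocytes, had 2220 TPM in replicate 2 and 1815 TPM in replicate 1.

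Dctn1 joined exons of 21, 18 and 21 nt in a row, by 861 reads in R2 and 766 in R1 for the first link and 1505 and 1491 for the second. A further 64 reads in R2 and 68 in R1 joined the outer pair directly, past the 18 nt exon, whose inclusion was 94.9% in R2 and 94.3% in R1. Amph, amphiphysin of endocytic necks, had adjoining exons of 24 nt at 100% in both columns, joined by 587 reads in R2 and 588 in R1. The 17 nt exons of Tle1, Tle3 and Tle4, transcriptional corepressors, are out of frame by length and were at 100% in both columns. Among splicing regulators, Srrm3 had a 20 nt exon at 50% in R2 and 44.6% in R1, which shares an end with another exon, and Srrm4 had a 27 nt exon at 100% in both on 30.5 and 29 informative reads.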
